A study of Mus musculus with 39 samples.

Results

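The genes described here are 9 transporters that move bile acids and other organic anions across the hepatocyte membrane, measured in the liver of wild-type and PPARα-null mice given PFOA or pirinixic acid. 5 of them take up solutes from blood (Slco1a1, Slco1a4, Slco1b2, Slco2b1 and Slc10a1), 2 export them into bile (Abcb11 and Abcc2) and 2 export them back towards blood (Abcc3 and Abcc4). They were chosen by name: a gene is given by a probe that the platform annotation pairs with its symbol alone, and by the probe with the highest mean signal where it has several. 7 of the 9 genes have such a probe, exactly 1 each, among 13840 genes of the whole series with one. Abcc3 and Abcc4 have none in the annotation used here and were not analysed here.

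All groups were adult male mice of the 129SV background, wild-type or PPARα-null, gavaged on 7 consecutive days. In each genotype, 3 groups received deionised water with the ammonium salt of PFOA at 0, 1 or 3 mg/kg, and 2 groups received 0.5% methylcellulose with pirinixic acid at 0 or 50 mg/kg. PFOA, or perfluorooctanoic acid, is a surfactant that persists in the body and activates PPARα among other receptors. Pirinixic acid is a selective PPARα agonist, which the plots name by its Wyeth code. Every null group, vehicles included, carries the PPARα deletion, and PPARα (gene Ppara) is the fatty acid receptor through which peroxisome proliferators switch on fat oxidation in rodent liver. The 10 groups hold 39 arrays of whole-liver RNA, 4 each except 3 for wild type with methylcellulose, and the series describes 4 animals per group. In whole liver, fewer cells of a type and less RNA per cell cannot be told apart.

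Hepatocytes take bile acids from portal blood at the sinusoidal membrane and pass them into the bile canaliculus. Slc10a1 encodes NTCP, the sodium-coupled carrier of conjugated bile acids, and the Slco genes encode OATPs, sodium-independent carriers of bile acids, steroid conjugates, thyroid hormones and drugs. Abcb11 encodes BSEP, the ATP-driven pump for bile salts, and Abcc2 encodes MRP2, which pumps bilirubin glucuronides and glutathione conjugates. Abcc3 and Abcc4 (MRP3 and MRP4) lie on the sinusoidal side and carry conjugates out of the cell when bile flow is impaired. Nuclear receptors such as FXR, PXR, CAR and PPARα, and the stress factor NRF2, are known regulators of this gene group.

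The promoters of 4 members are shown because the results turn on Slco1a1, Slco1a4 and Slc10a1 on the uptake side, and Abcc2 is the export gene that differed most between the compounds. Each is the 250 bases before the annotated start, from RefSeq on build GRCm38.p6, written 5′ to 3′ on the gene's strand. Capitals mark AGGTCA on either strand (TGACCT is its reverse complement), the hexamer that nuclear receptors bind in pairs, and TGACNNNGC on either strand, the core bound by NRF2. The windows are chr6:141946963-141947212 (minus strand) for Slco1a1, chr6:141856221-141856470 (minus strand) for Slco1a4, chr12:80968706-80968955 (minus strand) for Slc10a1 and chr19:43782058-43782307 (plus strand) for Abcc2.
Slco1a1: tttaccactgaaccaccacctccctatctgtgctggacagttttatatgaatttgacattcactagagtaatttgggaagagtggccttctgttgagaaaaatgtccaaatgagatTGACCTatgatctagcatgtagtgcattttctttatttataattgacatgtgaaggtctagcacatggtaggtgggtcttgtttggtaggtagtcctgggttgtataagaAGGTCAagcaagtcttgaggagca
Slco1a4: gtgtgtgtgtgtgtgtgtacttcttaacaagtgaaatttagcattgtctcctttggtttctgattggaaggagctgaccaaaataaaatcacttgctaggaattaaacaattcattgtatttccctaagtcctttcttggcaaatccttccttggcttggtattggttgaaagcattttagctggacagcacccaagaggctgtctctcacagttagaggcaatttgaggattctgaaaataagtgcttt
Slc10a1: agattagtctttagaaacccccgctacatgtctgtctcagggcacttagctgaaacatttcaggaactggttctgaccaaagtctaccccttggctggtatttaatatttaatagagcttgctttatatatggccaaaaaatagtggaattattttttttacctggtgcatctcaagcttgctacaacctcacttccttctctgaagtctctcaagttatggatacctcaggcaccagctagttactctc
Abcc2: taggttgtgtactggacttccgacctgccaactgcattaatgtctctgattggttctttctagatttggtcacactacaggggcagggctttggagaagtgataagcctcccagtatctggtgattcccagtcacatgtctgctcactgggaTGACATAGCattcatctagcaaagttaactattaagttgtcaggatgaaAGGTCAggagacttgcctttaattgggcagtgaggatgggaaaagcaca
Slco1a1 holds AGGTCA beginning 24 bases before the start and, on the opposite strand, 134 bases before it. Abcc2 holds AGGTCA 49 bases and TGACNNNGC 98 bases before the start. The windows shown for Slco1a4 and Slc10a1 hold neither motif in these letters. Slc10a1 has a second annotated start, and the window before it (chr12:80968080-80968329, not shown) holds AGGTCA 87 bases before that start. Across the 8 members with a promoter entry, which have 12 windows, AGGTCA occurred in 5 windows and TGACNNNGC in 3, against 14.02% and 10.2% of the 32851 promoters searched. The windows with TGACNNNGC are those of Abcc4, whose signal was not analysed here, and of Abcc2, the only measured member with it. A match is a description of the sequence, not a measured binding site. Slco1b2, Slco1a4 and Slco1a1 are neighbours on chromosome 6: the start of Slco1b2 lies 227 kb from that of Slco1a4, and that of Slco1a4 lies 90.7 kb from that of Slco1a1.

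Values are log2 signals, so a difference of 1 is a doubling, and levels are compared only within a probe. All 7 members were bright, with mean signals above 92.4% (Abcc2) to 99.4% (Slco1b2) of the probes. Every array had a median of 9.14, and arrays of the same group correlated at a median of 0.958. A set of 151 probes, none of them a member, splits the arrays into 16 and 23 across the groups. The labels name no such sets, but the split largely follows the replicate number: 10 of 10 arrays of replicate 2 and 9 of 10 of replicate 3 lie in the larger set, against 2 of 10 of replicate 1 and 2 of 9 of replicate 4. All 4 wild-type pirinixic acid arrays lie in the larger set, so that comparison could not be repeated within the smaller one. A difference was counted as a rise or a fall at a Benjamini-Hochberg adjusted p under 0.05 in limma over 25295 probes, fitted to all 39 arrays.

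A pair of wild-type arrays stands apart, and member values that move by over 1.5 times or change their call without them are given both ways. The array labelled PFOA 1 mg/kg replicate 3 goes against its label. Cox6b2, a cytochrome oxidase subunit whose signal separated the genotypes on the other arrays, was 9.06 there, within the null range of 6.91 to 10.05 and below the 13.29 to 17.56 of the other wild-type arrays. Ehhadh, a peroxisomal PPARα target, was 15.94 there against 20.01 to 20.31 on the other 3 arrays of its group. The wild-type pirinixic acid replicate 3 had the lowest signal of its group for 6 of the 7 members, all but Abcc2. On that array Acot1, another PPARα target, was 20.27 against 16.78 to 17.88 on the others, and Hsd3b5, a male-biased liver enzyme, was 10.51 against 12.73 to 14.16.

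At 3 mg/kg PFOA in wild-type liver, 3 of the 7 transporters fell and 0 rose, and all 3 are uptake genes: Slco1a4 by 3.54, Slco1a1 by 1.35 and Slc10a1 by 0.82 on the log2 scale. Among all probes tested, 2.46% fell and 5.82% changed in either direction. The median difference of the 7 members was -0.70 and that of the 5 uptake genes -0.82, against -0.02 over all probes. With pirinixic acid, 2 of the 7 fell, Slco1a1 by 2.79 and Slc10a1 by 0.83, against 3.3% of all probes that fell and 6.1% that changed, and the member median was -0.73 against -0.03 over all probes (-0.52 against -0.04 with the pair of outlying arrays left out). At 1 mg/kg PFOA 0 of the 7 changed, although Slco1a4 passed with both outlying arrays left out of every fit. In null mice 0 of the 7 changed with any of the 3 treatments.

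**Figure D1:**
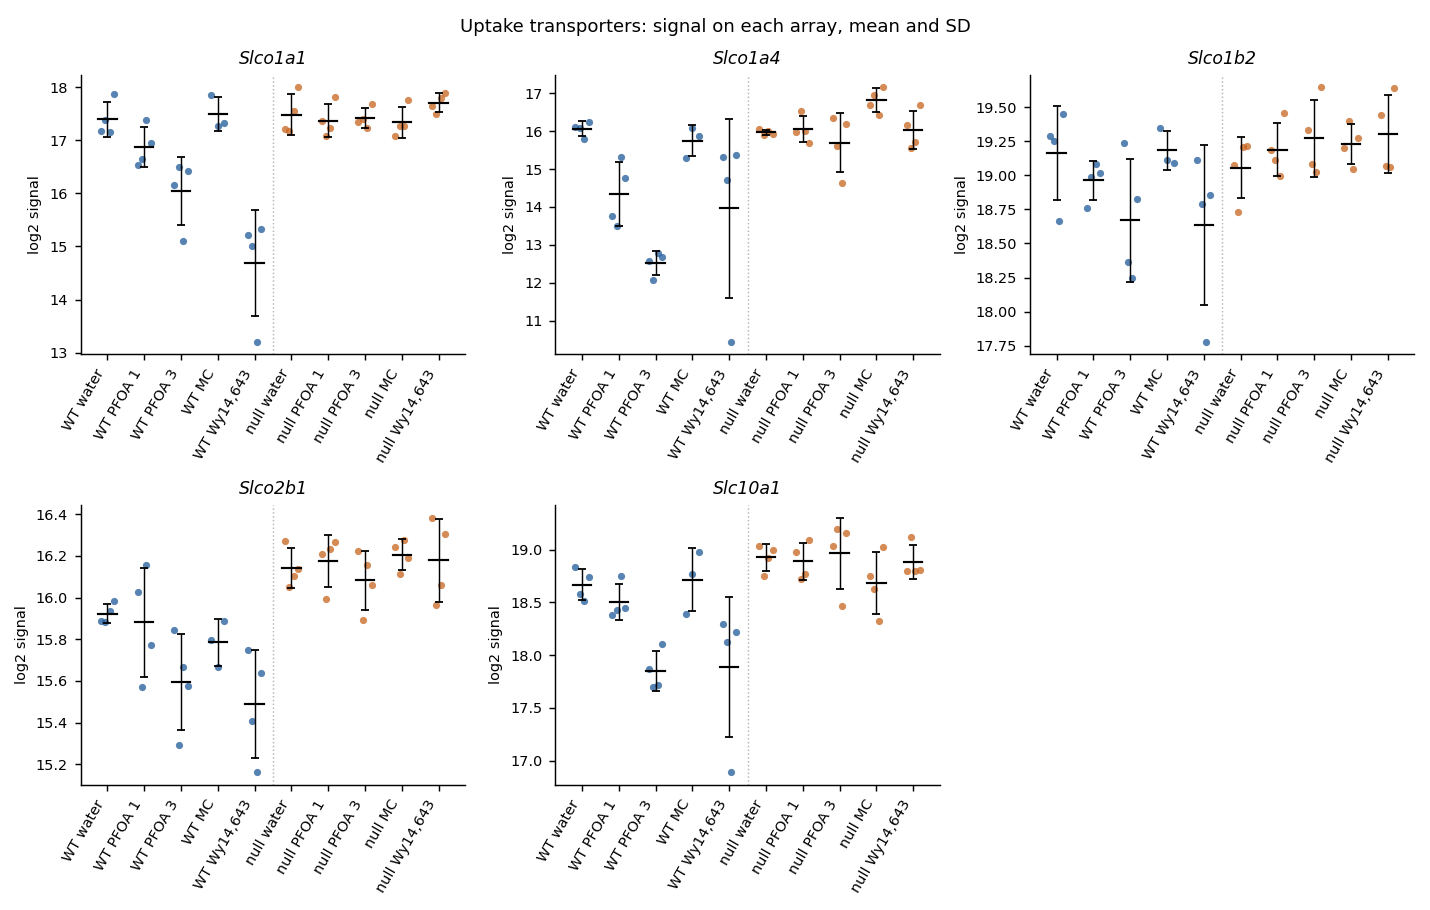
Log2 signal of the 5 uptake genes on each array (points) in the 10 groups, with the group mean and SD (bars). Slco1a4 in wild type with PFOA 3 mg/kg lies between 12.06 and 12.79, below every null array (14.63 to 17.16).

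Slco1a1, which encodes OATP1A1, a carrier of sulfated steroids and other amphipathic anions that is more abundant in male than in female liver, had the lowest wild-type levels with pirinixic acid. Its signal in wild type with methylcellulose was 17.85, 17.27 and 17.33, and with pirinixic acid 15.22, 15.01, 13.21 and 15.33. The groups did not overlap. The mean went from 17.48 ± 0.32 (SD, n = 3) to 14.69 ± 1.00 (SD, n = 4), 6.93-fold lower (log2 difference -2.79, SE 0.35, limma adjusted p = 7.7e-06). Without the array at 13.21 the difference was -2.30 (limma adjusted p = 1.4e-05). With only the compared groups in the fit, -2.79 had an SE of 0.52 and did not pass (limma adjusted p = 0.0935).

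With water the 4 wild-type arrays gave 17.17, 17.37, 17.15 and 17.86 for Slco1a1, and with 3 mg/kg PFOA 16.15, 16.49, 15.11 and 16.42. These groups did not overlap either. Slco1a1 was 2.55-fold lower (log2 difference -1.35, SE 0.33, limma adjusted p = 0.0102). It was -1.23 within the smaller array set (limma adjusted p = 0.152) and -1.47 within the larger (adjusted p = 0.14), so the call was lost and the size was not. The call was also lost with only the compared groups in the fit (limma adjusted p = 0.111). Leaving out PFOA 3 mg/kg replicate 3 gave -1.04 (limma adjusted p = 0.0785). At 1 mg/kg the arrays gave 16.52, 16.64, 17.38 and 16.95, which overlap the water range through replicate 3, and the difference of -0.52 did not pass (limma adjusted p = 0.577). In the 20 null arrays Slco1a1 ran from 17.07 to 17.996 with a median of 17.38, against 17.15 to 17.86 of the 7 wild-type vehicle arrays.

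Ordered by mean, the levels of Slco1a1 fall into a top 7 made of all 5 null groups and both wild-type vehicles, between 17.34 and 17.71, whose neighbours differ by less than the larger of their SDs. Below them come wild type with PFOA 1 mg/kg (16.87 ± 0.38), PFOA 3 mg/kg (16.04 ± 0.64) and pirinixic acid (14.69 ± 1.00, all SD, n = 4). Each of these last steps is larger than the larger of the neighbouring SDs. Without replicate 3 the lowest mean was 15.19 ± 0.17 and that at 1 mg/kg 16.70 ± 0.22 (SD, n = 3), in the same order.

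Slco1a4, which encodes OATP1A4, a carrier of bile acids and cardiac glycosides that PXR ligands are known to induce, had its lowest group mean with PFOA at 3 mg/kg. With water the wild-type arrays gave 16.12, 16.10, 15.80 and 16.26, and with 3 mg/kg PFOA 12.57, 12.06, 12.79 and 12.68. The groups are separated by about 3 log2 units with no overlap. The mean was 11.7-fold lower (log2 difference -3.54, SE 0.61, limma adjusted p = 0.00029). The size was -3.56 in the smaller array set (limma adjusted p = 0.00047) and -3.52 in the larger (adjusted p = 0.0841).

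The 4 arrays at 1 mg/kg gave 13.77, 13.50, 15.32 and 14.78, for Slco1a4, all below the water arrays. The highest of them is the array that goes against its label. The difference was -1.73 (SE 0.61, limma adjusted p = 0.291) with it and -2.05 (adjusted p = 0.162) without it. With both outlying arrays left out of every fit, the same -2.05 had an SE of 0.33 and passed (limma adjusted p = 0.000306). In that fit the spread of Slco1a4 no longer includes the pirinixic acid array at 10.44.

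The pirinixic acid values of Slco1a4 in wild type were 15.33, 14.71, 10.44 and 15.37, against 15.28, 16.08 and 15.89 with methylcellulose. 3 of the 4 treated arrays lie within about 1 log2 unit of the vehicle mean and the fourth lies far below. The difference of -1.79 (SE 0.66) did not pass (limma adjusted p = 0.103), and without replicate 3 it was -0.61 (adjusted p = 0.42). Leaving out replicate 1 or replicate 4 in its place gave -2.24 (limma adjusted p = 0.0331) and -2.26 (adjusted p = 0.0488), so this value rests on the array at 10.44. Among null arrays Slco1a4 ran from 14.63 to 17.16 with a median of 16.03, and null mice with methylcellulose had the highest group mean, 16.81 ± 0.32 (SD, n = 4).

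**Figure D2:**
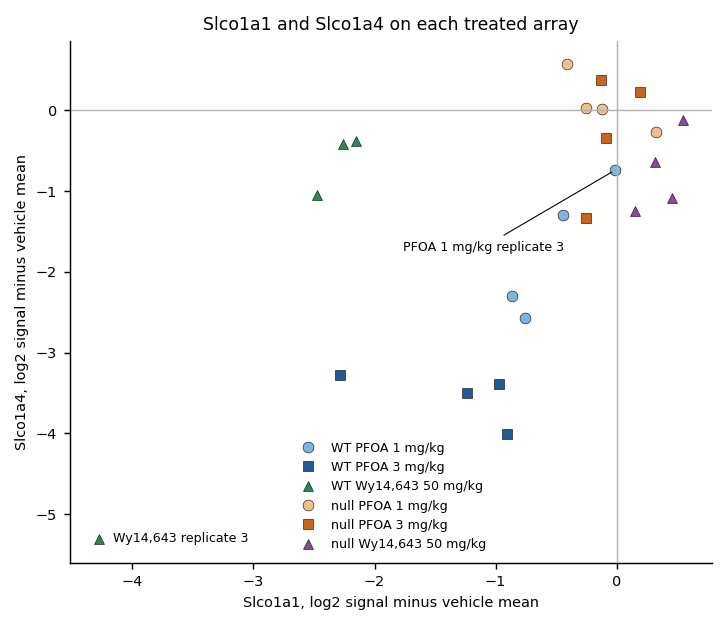
Each treated array minus the mean of its vehicle group (log2 units) for Slco1a1 and Slco1a4, by treatment and genotype. With pirinixic acid Slco1a1 lies at -4.28 to -2.15 in all 4 wild-type arrays, while Slco1a4 lies at -1.04 to -0.38 in 3 of them and at -5.31 in replicate 3.

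Slc10a1, the NTCP gene, gave 18.84, 18.58, 18.51 and 18.74 with water and 17.87, 17.70, 17.72 and 18.11 with 3 mg/kg PFOA in wild type. All 4 treated arrays lie below all 4 vehicle arrays. The difference was -0.82 (SE 0.22, limma adjusted p = 0.019), a 1.76-fold lower signal. It was -0.80 within the smaller array set (limma adjusted p = 0.0853) and -0.84 within the larger (adjusted p = 0.22), and with only the compared groups in the fit the limma adjusted p was 0.0708. The call was also lost without PFOA 3 mg/kg replicate 2 or 3 or water replicate 4, with differences of -0.77, -0.78 and -0.80 and limma adjusted p of 0.061, 0.0658 and 0.0531. With pirinixic acid the arrays gave 18.29, 18.13, 16.89 and 18.22 against 18.39, 18.77 and 18.98 with methylcellulose, again without overlap. This difference of -0.83 (limma adjusted p = 0.029) became -0.50 (adjusted p = 0.142) without the array at 16.89, and had a limma adjusted p of 0.332 with only the compared groups fitted. It was -0.80 (limma adjusted p = 0.0936) without methylcellulose replicate 2 and -0.70 (adjusted p = 0.156) without replicate 3. With PFOA at 1 mg/kg Slc10a1 was 18.50 ± 0.17 against 18.67 ± 0.15 with water (SD, n = 4), a difference of -0.16. Without the array against its label it was 18.42 ± 0.03 (SD, n = 3), a difference of -0.25. In the 20 null arrays Slc10a1 ran from 18.32 to 19.19.

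Slco1b2, the liver-restricted OATP1B2 that takes up unconjugated bile acids and many drugs, passed in none of the 17 comparisons. In wild type it gave 19.29, 19.25, 18.67 and 19.45 with water and 19.24, 18.37, 18.25 and 18.82 with 3 mg/kg PFOA, so the groups overlap. The difference was -0.49 (limma adjusted p = 0.233), and with pirinixic acid it was -0.55 (adjusted p = 0.191). Without pirinixic acid replicate 3, at 17.78 against 18.79 to 19.11 on the others, it was -0.26 (limma adjusted p = 0.58). Its null arrays ran from 18.73 to 19.65.

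Slco2b1 encodes OATP2B1, a widely expressed carrier of steroid sulfates. It gave 15.89, 15.88, 15.93 and 15.99 with water and 15.85, 15.29, 15.67 and 15.57 with 3 mg/kg PFOA in wild type. Every treated array was below every vehicle array, by little, and the difference of -0.33 did not pass (limma adjusted p = 0.187). With pirinixic acid the difference was -0.30 (limma adjusted p = 0.263), and -0.19 (adjusted p = 0.562) without replicate 3. Slco2b1 was set apart by genotype in the order of its levels: the 5 null groups had means of 16.08 to 16.21 and the 5 wild-type groups 15.49 to 15.92. The difference between genotypes was 0.22 with water (limma adjusted p = 0.58) and 0.42 with methylcellulose (adjusted p = 0.245), and neither passed.

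**Figure D3:**
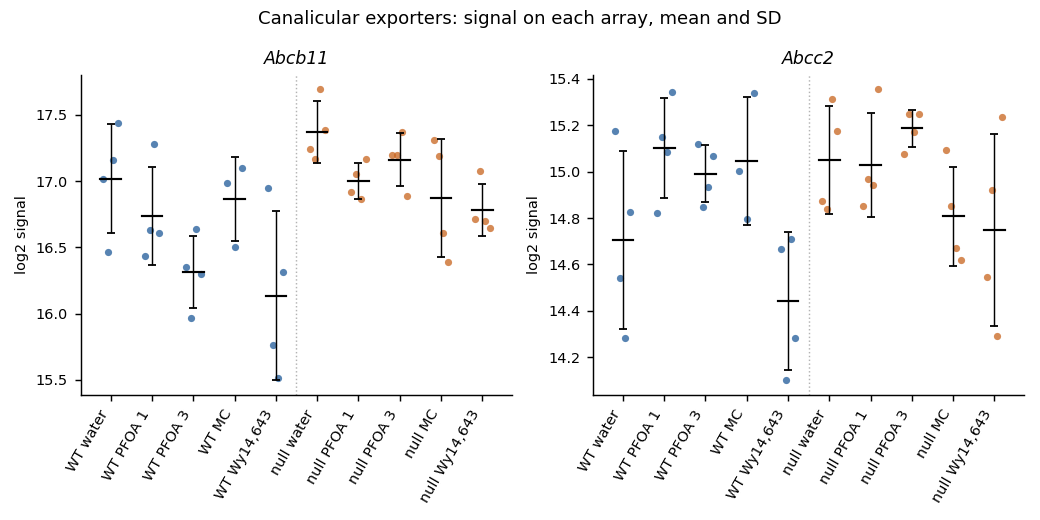
Log2 signal of the 2 canalicular export genes on each array (points) in the 10 groups, with the group mean and SD (bars). Abcb11 in wild type spans 15.51 to 17.44 and Abcc2 14.10 to 15.35, and the Abcc2 arrays with pirinixic acid (14.10 to 14.71) lie below those with methylcellulose (14.80 to 15.34).

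On the export side neither gene passed in any of the 17 comparisons. Abcb11, the bile salt pump, gave 17.02, 16.46, 17.16 and 17.44 with water and 16.36, 15.97, 16.64 and 16.30 with 3 mg/kg PFOA in wild type. The highest treated array exceeds the lowest water array. The difference was -0.70 (SE 0.25, 95% interval -1.22 to -0.19, limma adjusted p = 0.1). With the mean signal of 583 probes for genes silent in liver as a covariate it was -0.89 and passed (limma adjusted p = 0.0341). With pirinixic acid Abcb11 gave 16.95, 15.77, 15.51 and 16.32 against 16.99, 16.50 and 17.10. That difference of -0.73 did not pass (limma adjusted p = 0.108), and it was -0.999 (adjusted p = 0.0141) without the treated array at 16.95. Without the outlying replicate 3, at 15.51, it was -0.52 (limma adjusted p = 0.317). The size of the Abcb11 difference was thus close to that of Slc10a1 with both compounds, with a larger SE (0.25 and 0.27, against 0.22 and 0.23).

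Abcc2, the conjugate pump, was the only member whose difference had opposite signs with the 2 compounds in wild type, and neither difference passed. Its vehicle means differed, 14.70 ± 0.38 with water (SD, n = 4) and 15.05 ± 0.27 with methylcellulose (SD, n = 3). The mean at 3 mg/kg PFOA was 14.99 ± 0.12 (SD, n = 4), close to that with methylcellulose. With 3 mg/kg PFOA it gave 15.12, 14.85, 14.93 and 15.07 against 15.17, 14.54, 14.28 and 14.83 with water, overlapping groups with a difference of 0.29 (limma adjusted p = 0.469). The difference at the lower dose was 0.40 (limma adjusted p = 0.457). With pirinixic acid it gave 14.67, 14.10, 14.71 and 14.28, each below the methylcellulose arrays at 15.00, 14.80 and 15.34. This difference of -0.61 (SE 0.21) did not pass (limma adjusted p = 0.081), although it passed when only probes above the median signal were tested (adjusted p = 0.0466).

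By overlap alone, 4 of the 7 members were lower without overlap at 3 mg/kg PFOA (Slco1a1, Slco1a4, Slco2b1 and Slc10a1), against 4.53% of all probes, and 3 of 7 with pirinixic acid (Slco1a1, Slc10a1 and Abcc2), against 9.55%. For the lower dose it was 1 of 7 (Slco1a4), against 2.34%. That count includes the array against its label. Without that array Slco1a1 (16.52 to 16.95, against 17.15 to 17.86 with water) also lay wholly below water. So did Slc10a1 (18.38 to 18.45, against 18.51 to 18.84). The share of all probes was not counted without it, and 3 arrays separate from 4 more easily. The 2.34% therefore does not apply to these ranges. To set uptake beside export, each gene was centred on its mean over the 39 arrays and averaged by role, as a description with no test. The uptake average was 0.27 in wild type with water, -0.26 at 1 mg/kg and -1.04 at 3 mg/kg PFOA (range -1.27 to -0.84), and it went from 0.21 with methylcellulose to -1.04 with pirinixic acid (range -2.48 to -0.44). The canalicular average was -0.00 with water, 0.05 at 1 mg/kg and -0.21 at 3 mg/kg PFOA, and it went from 0.09 with methylcellulose to -0.58 with pirinixic acid. At 3 mg/kg PFOA the export average joins opposite differences from water, -0.70 for Abcb11 and 0.29 for Abcc2. The uptake average at that dose includes Slco1a4 at -3.54. The median difference of the uptake genes there was -0.82, near that of Abcb11. In null groups the uptake average ranged from 0.31 to 0.48 and the canalicular average from -0.10 to 0.34. Without replicate 3 the pirinixic acid averages were -0.57 for uptake and -0.52 for export (n = 3), so the gap between the roles with that compound rests on 1 array. Without the array against its label, uptake at 1 mg/kg averaged -0.41 and export -0.03.

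**Figure D4:**
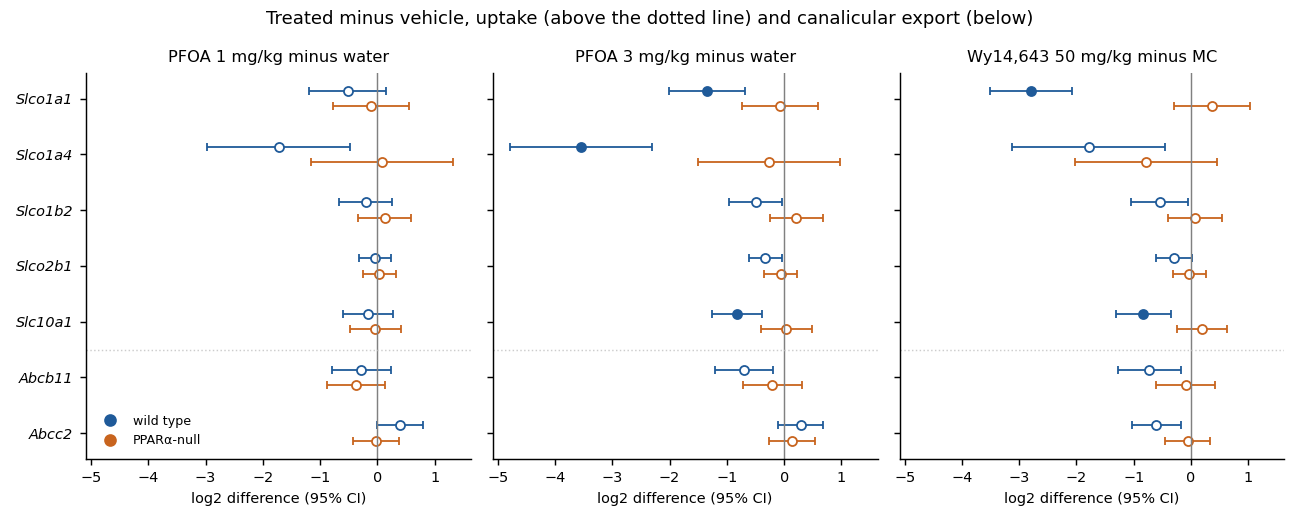
Log2 difference from vehicle with its 95% interval for the 7 transporters, by treatment, in wild-type (blue) and null (orange) mice; filled points have an adjusted p under 0.05. The filled points are Slco1a1, Slco1a4 and Slc10a1 at 3 mg/kg PFOA and Slco1a1 and Slc10a1 with pirinixic acid, all in wild type.

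In null mice, the 7 members differed from vehicle by -0.27 to 0.21 at 3 mg/kg PFOA, by -0.37 to 0.13 at 1 mg/kg, and by -0.78 (Slco1a4) to 0.37 (Slco1a1) with pirinixic acid. 0 of the 7 passed in limma in each, against 0.3%, 0.0119% and 0% of all probes, and 0 of the 7 had an unadjusted p under 0.05 in each, against 8.35%, 3.97% and 2.73% of probes. For the same limit in wild type, 6 of 7 had an unadjusted p under 0.05 at 3 mg/kg PFOA (18.6% of probes), 1 of 7 at 1 mg/kg (11%) and 6 of 7 with pirinixic acid (20.9%). The calls at 1 mg/kg in wild type were 0 of 7 where 0.273% of all probes changed. Without the array against its label 0 of 7 and 0.984% of probes changed, and with both outlying arrays left out of every fit 1 of 7 (Slco1a4) and 1.35%.

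The genotypes' responses were compared directly, by subtracting the wild-type difference from the null difference. With pirinixic acid it passed for Slco1a1 alone among the members, at 3.16 (SE 0.48, 95% interval 2.18 to 4.14, limma adjusted p = 0.000659), while 1.24% of all probes passed. 2 of the 7 had an unadjusted p under 0.05 in that comparison, against 15.1% of probes. It was 2.66 without the wild-type array at 13.21 (limma adjusted p = 0.00042) and 2.82 within the larger array set (adjusted p = 0.122). Slc10a1 gave 1.03 with pirinixic acid (limma adjusted p = 0.097). At 3 mg/kg PFOA 0 of 7 passed, against 0.415% of probes (4 of 7 at an unadjusted p under 0.05, against 10.7%), although Slco1a4 differed by 3.27 (SE 0.86, 95% interval 1.52 to 5.03, limma adjusted p = 0.093). That difference of 3.27 had an SE of 0.43 and passed when both outlying arrays, neither of them in the 4 groups compared, were left out of every fit (limma adjusted p = 2.5e-05), and it passed with only those 4 groups in the fit (adjusted p = 0.00145). Slco1a1 and Slc10a1 differed by 1.28 (limma adjusted p = 0.277) and 0.86 (adjusted p = 0.272) at that dose. With PFOA at 1 mg/kg 0 of 7 passed, as did 0% of all probes (1 of 7 at an unadjusted p under 0.05, against 5.04%), with 1.81 for Slco1a4 (limma adjusted p = 0.918) and 2.14 (adjusted p = 0.0236) with both arrays left out, where 0.32% of all probes passed.

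PFOA and pirinixic acid were given at different doses and in different vehicles, so their responses are set side by side as those of these treatments. In wild type the response to 3 mg/kg PFOA less that to pirinixic acid was 1.44 for Slco1a1 (95% interval 0.46 to 2.42), 0.89 for Abcc2 (0.31 to 1.48) and -1.76 for Slco1a4 (-3.58 to 0.07). 0 of 7 passed in limma (adjusted p = 0.247, 0.247 and 0.395 for these 3), against 0.0119% of all probes, and 2 of 7 had an unadjusted p under 0.05, against 13.4%. Without the pirinixic acid array at 10.44, the Slco1a4 difference was -2.93 and passed (limma adjusted p = 0.0109), while that of Slco1a1 was 0.95 (adjusted p = 0.249) and that of Abcc2 0.98 (adjusted p = 0.156). For Slc10a1 the difference was 0.01 (95% interval -0.64 to 0.66) and for Abcb11 0.03 (-0.73 to 0.78), and without that array they were -0.32 and -0.18, so differences of that width between the treatments are not excluded by these arrays.

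Between the PFOA doses in wild type 0 of 7 passed in limma, against 0.0277% of all probes, and 4 of 7 had an unadjusted p under 0.05, against 7.5%. Slco1a4 was lower by 1.82, Slco1a1 by 0.83 and Slc10a1 by 0.65 log2 units at 3 than at 1 mg/kg (limma adjusted p = 0.391, 0.525 and 0.382). For these 3 genes the dose groups did not overlap, against 1.86% of probes lower without overlap. Between null and wild-type vehicles 0 of 7 passed in water (0.127% of probes) or methylcellulose (0.186%), and 0 and 1 of 7 had an unadjusted p under 0.05 (10.8% and 12.5% of probes). The null arrays were higher without overlap for Slco2b1 in water (1 of 7, against 4.74%) and for Slco2b1 and Slco1a4 in methylcellulose (2 of 7, against 5.5%). Slco1a4 in null mice with methylcellulose gave 16.69, 16.96, 16.44 and 17.16, above the wild-type 15.28, 16.08 and 15.89, a difference of 1.06 that did not pass (limma adjusted p = 0.533). Methylcellulose against water gave 0 of 7 in both genotypes, as it did for 0% of all probes, with 0 of 7 at an unadjusted p under 0.05 (8.66% of probes in wild type and 11.6% in null). In null mice Slco1a4 was nevertheless higher without overlap in methylcellulose, 1 of 7 members against 3.37% of probes. Between PFOA doses and between compounds in null mice limma also called 0 of 7 (0.00791% and 0.0474% of probes), with 0 of 7 at an unadjusted p under 0.05 (4.57% and 5.16%).

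Of 23 measured other transporters of bile acids, lipids and drugs in liver, from a list of 35, 3 rose and 0 fell at 3 mg/kg PFOA in wild type, with a median difference of 0.05 against -0.02 over all probes. For this list and those below, 5.82% of all probes changed at that dose in wild type and 6.1% with pirinixic acid. Abcg2, the canalicular pump BCRP, rose by 1.69 ± 0.20 (SE) at 3 mg/kg, by 1.09 ± 0.20 at 1 mg/kg (limma adjusted p = 0.0058) and by 0.98 ± 0.22 with pirinixic acid (adjusted p = 0.0055), and its 3 mg/kg response differed between genotypes (-1.44 ± 0.29, adjusted p = 0.0138). Abcb4, which moves phosphatidylcholine into bile, rose by 1.11 ± 0.25 (limma adjusted p = 0.0056) and Slco1a5 by 1.06 ± 0.31 (adjusted p = 0.0343) at 3 mg/kg PFOA. With pirinixic acid 3 rose and 1 fell: Abcb1a and Abcb1b, the P-glycoprotein genes, rose by 1.35 ± 0.32 (limma adjusted p = 0.009) and 2.44 ± 0.65 (adjusted p = 0.0208), beside Abcg2. Pdzk1, a scaffold that holds transporters at the membrane, fell by 0.51 ± 0.14 (limma adjusted p = 0.0217). Slco1a1, Slco1a4 and Slco1a5, like Abcb1a and Abcb1b, are close paralogs, and the labels do not say how far each probe separates them. In null mice 0 of the 23 changed with any of the treatments. With both outlying arrays out of every fit, 4 of the 23 rose and 1 fell at 3 mg/kg PFOA, and 2 rose at 1 mg/kg. With pirinixic acid Abcb1a and Abcg2 still rose in that fit, while Abcb1b and Pdzk1 did not pass (limma adjusted p = 0.052 and 0.058). For this list and those below, that fit in wild type called 6.89% of all probes at 3 mg/kg PFOA, 1.35% at 1 mg/kg and 3.92% with pirinixic acid.

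Among 14 measured regulators of these genes, from a list of 18, only Fgfr4, the receptor for the gut hormone that lowers bile acid synthesis, fell at 3 mg/kg PFOA in wild type (-0.63 ± 0.18, limma adjusted p = 0.0289), and 0 changed with pirinixic acid. The FXR gene Nr1h4 differed by -0.20 and -0.60, the PXR gene Nr1i2 by 0.31 and -0.37 and the CAR gene Nr1i3 by 0.25 and -0.22 with PFOA and pirinixic acid, and none passed. Of 14 measured genes of bile acid synthesis and conjugation, 2 rose and 3 fell at 3 mg/kg PFOA. Cyp8b1, which directs synthesis to cholic acid, rose by 1.15, and Baat, which conjugates bile acids to taurine or glycine, fell by 0.76. Over the 14 genes the differences ran from -2.79 to 1.15 with PFOA and from -1.89 to 0.80 with pirinixic acid. With pirinixic acid 2 rose and 2 fell, Baat by 0.82 among them. With both outlying arrays out, 2 rose and 5 fell with PFOA, 1 rose and 1 fell with pirinixic acid, and Baat gave -0.63 with the latter (limma adjusted p = 0.111). Cyp7a1, the rate-limiting enzyme, differed by 0.28 and -1.19 and did not pass.

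Slco1a1 is also a male-biased gene. Of 10 measured genes of that kind, itself included, 4 fell and 0 rose at 3 mg/kg PFOA and likewise with pirinixic acid, with medians of -0.40 and -0.61. Of all probes, 2.46% and 3.3% fell. Differences within the list ran from -4.85 to 1.09 with PFOA and from -4.49 to 1.36 with pirinixic acid. Hsd3b5 fell by 4.85 and 4.49 and Ugt2b1 by 0.95 and 1.96. The counts of 4 were the same with both outlying arrays left out. In null mice 0 of these 10 changed with any treatment.

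Other cell markers were read beside these falls. The mean of 5 measured hepatocyte markers was 20.06 (19.97 to 20.18) with water and 19.64 (19.51 to 19.75) at 3 mg/kg PFOA in wild type, and 20.07 (19.67 to 20.41) with methylcellulose and 19.65 (19.40 to 19.93) with pirinixic acid. Only Ahsg among them fell, by 0.81 and 0.87, and the second value was -0.60 (limma adjusted p = 0.0643) with both outlying arrays out. The Kupffer cell mean of 7 markers went from 12.29 to 11.83 and from 12.43 to 11.94, with 1 and 3 of the 7 falling (2 and 3 with both outlying arrays out). Of 6 cholangiocyte markers only Krt23 rose, by 5.996 and 4.22. Of 7 endothelial markers 1 rose and 2 fell with PFOA and 3 fell with pirinixic acid (1 with both outlying arrays out). Among 5 stellate cell markers only Dcn fell, by 0.52 with PFOA, and among 4 kidney and gut markers only Fabp2 rose, by 1.64 and 1.85. In null mice the hepatocyte mean was 20.14 (20.06 to 20.23) with water and 19.80 (19.64 to 19.99) at 3 mg/kg PFOA. It was 20.13 with methylcellulose and 20.03 with pirinixic acid. The null Kupffer cell mean went from 12.48 to 12.32 and from 12.47 to 12.88. Over the 3 treatments in null mice, 1 of the 5 stellate cell markers rose, at 3 mg/kg PFOA, and 0 markers of the other types changed. The part of these shifts in the transporter differences was not tested.

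Over the 10 group means, the genes most like a member in pattern, among members whose means span at least 1 log2 unit, are given as a description. Slco1a1 (span 3.01) was most like Trf (transferrin, r = 0.98) and C8a (a complement component, r = 0.98). Slco1a4 (span 4.29) was most like Sdc4 (r = 0.98) and Vasn (r = 0.97), Slc10a1 (span 1.12) like Khk (the fructose kinase, r = 0.98) and Irf5 (r = 0.97), and Abcb11 (span 1.24) like Prom2 and Pde9a (both r = 0.97). Slco1b2, Slco2b1 and Abcc2 spanned 0.67, 0.72 and 0.75 and were not compared. These pairs were picked for the highest r over 10 means, so a high r follows from the choice. With both outlying arrays left out, the correlations of the same 8 pairs ran from 0.943 to 0.981, and the genes were not ranked again.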

How the data were processed

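Liver RNA of 39 arrays in 10 groups was measured on 1-colour Applied Biosystems arrays; groups were taken from the labels. The deposited values are log2 signals whose quantiles the authors had made equal across arrays, read from the values (4.85 to 21.5); the base of the logarithm is inferred from that range, and software and background correction were not stated in the labels. Equal quantiles hide any shift shared by all genes. Of 33012 probes, 14411 have 1 gene symbol, and 14823 values (1.15%) are missing. Probes complete over all arrays (25295) entered a limma 3.58.1 fit under R 4.3.3 (1 mean per group, 29 residual and 2.51 prior degrees of freedom, two-sided, Benjamini-Hochberg over all probes) for 17 differences, after checking the script on simulated data. Errors are SDs of groups or SEs of the fit, and the number of arrays limits precision. The named genes are the 9 members and up to 4 genes per list with the smallest adjusted p; Nr1h4, Nr1i2, Nr1i3 and Cyp7a1 were added after their values were seen, as were the genes that describe the outlying arrays. Members and lists were chosen with earlier results of these data known. Alternatives were other probe filters, cyclic loess, other variance models, fewer groups, blocks, a silent-gene covariate and leaving out arrays; leaving out the 2 outlying arrays from every fit was chosen after seeing the data.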

Additional observations from a re-analysis of the deposited data

Results flagged for a closer look

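In 63 gene-by-group sets of 4 arrays, the gap of the farthest array was compared with Dixon's 95% limit, which chance passes in about 1 of 20 sets; 6 passed. 3 are the wild-type pirinixic acid replicate 3: Slco1a1 at 13.21 against 15.01 to 15.33 on the others, Slco1a4 at 10.44 against 14.71 to 15.37, and Slc10a1 at 16.89 against 18.13 to 18.29. 1 is the array labelled wild type with PFOA 1 mg/kg replicate 3, with Slc10a1 at 18.75 against 18.38 to 18.45. The other 2 are null pirinixic acid replicate 2, with Slc10a1 at 19.12 against 18.79 to 18.81 and Abcb11 at 17.07 against 16.65 to 16.72.

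The response of Slco1a1 to pirinixic acid differed between genotypes, by 3.16 on the log2 scale (null minus wild type, limma adjusted p = 0.000659): 4 of 4 wild-type arrays were below their vehicle mean and 4 of 4 null arrays above theirs.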

How the results depend on the processing

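The count of members changed at 3 mg/kg PFOA in wild type (3) was 1 with only the compared groups fitted, 1 in the smaller array set, 0 in the larger set, 1 to 3 with 1 array left out, and 4 with the silent-gene covariate. Of the 25295 probes, 1473 were called in the main fit and 441 with only the compared groups. The smaller set gave 262, the larger set 1128 and the covariate 1258. Probe counts for fits with 1 array left out are not given. With pirinixic acid in wild type (2) the member count was 0 with only the compared groups, 1 in the larger set, 1 with both outlying arrays out, 1 to 4 with 1 array left out, and 3 with only probes above the median. The main fit called 1542 probes, that with only the compared groups 70 and the larger set 249. With both arrays out 991 were called, and 2102 of the 16287 probes above the median. At 1 mg/kg (0) the member count was 1 with both outlying arrays out, where 341 probes were called against 69 in the main fit. The genotype difference at 3 mg/kg (0) became 1 with only the compared groups, in the smaller set, and with both outlying arrays out, and that at 1 mg/kg (0) became 1 with both out. For 3 mg/kg these fits called 156, 17 and 309 probes in turn, against 105 in the main fit. For 1 mg/kg, 81 probes were called with both out, against 0 in the main fit. The genotype difference with pirinixic acid (1) was 0 in the larger set and 1 to 2 with 1 array left out. The larger set called 2 probes for it, against 313 in the main fit. PFOA 3 mg/kg against pirinixic acid in wild type (0) was 1 with both out and 0 to 1 with 1 array left out. With both out 53 probes were called for it, against 3 in the main fit. The set-wise fits use fewer arrays; other causes were not tested.

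With the replicate number as a block the counts of 3 and 2 were the same, and it changed no member's call, while it moved the probes called for the genotype difference with pirinixic acid from 313 to 588. Over 30 same-numbered pairs the correlation of deviations ran from -0.263 to 0.278 and was above 0.1 in 14, so the numbers were not taken to pair the animals, although they largely follow the array sets. Of single-gene values, 1282 kept their call or lack of one, 8 gained a call and 12 lost it under the other alternatives. With 1 array left out 1185 kept, 5 gained and 7 lost it, and 0 changed sign while called. Most values were uncalled in the main fit. The wild-type calls at 3 mg/kg PFOA passed in 9 of 12 other alternatives for Slco1a1, 11 of 12 for Slco1a4 and 9 of 12 for Slc10a1. With pirinixic acid they passed in 10 of 11 for Slco1a1 and 8 of 11 for Slc10a1. The genotype difference of Slco1a1 with pirinixic acid passed in 10 of 11. Another probe of a gene was not run, since each measured member has 1. All 7 members were well above the median signal, and the 3 or 4 arrays a group limit the precision.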
